A study of Homo sapiens with 6 samples.

Results

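The Krüppel-like factors (KLF) are zinc-finger transcription factors, and 10 of their genes are described here: KLF2, KLF3, KLF4, KLF5, KLF6, KLF7, KLF9, KLF10, KLF11 and KLF13. They were taken by symbol from a named list, and all 10 were found among the 16781 genes of the expression table. The list was drawn up with the difference between the 2 groups of this study in view, so the differences of these 10 genes between the groups are given as a description and without a test. The list does not follow abundance: KLF2, which is on it, had 2 to 9 counts in a library, while KLF12, which is not, had 433 to 560.

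Messenger RNA was sequenced in 6 libraries of Caco-2, a long-established human cell line of colon adenocarcinoma that can come to resemble absorptive enterocytes. The group WT (3 libraries) held unmodified cells. The group CBS KO (3 libraries) held cells in which CBS, the enzyme cystathionine beta-synthase, had been targeted by CRISPR/Cas9 with a lentivirus carrying the guide, Cas9 and a puromycin resistance gene, and which had survived selection with puromycin. Both groups grew in the same high-glucose medium with serum, and no other treatment is named. Unmodified cells were the sole controls, and virus-infected controls are not analysed here, so effects of the targeting of CBS, of the infection and of the selection cannot be told apart. The puromycin-resistant cells were collected together, and the labels name no single clone. Neither do the labels tell separate cultures from repeat libraries, so the p-values rest on the spread between these samples alone, which may be technical.

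All KLF proteins carry 3 zinc fingers at their C-terminal end, by which they bind GC-rich DNA and CACCC boxes, and they differ mainly in the N-terminal part that recruits partners. KLF2, KLF4, KLF5, KLF6 and KLF7 can act as activators, often through the acetyltransferases EP300 and CREBBP. KLF3, with KLF8 and KLF12, represses through the co-repressor CtBP, while KLF9, KLF10, KLF11 and KLF13, with KLF14 and KLF16, can bind the co-repressor SIN3A. In the gut lining KLF5 is typical of the dividing cells of the crypt and KLF4 of the differentiated cells near the surface, and the pair often act in opposite directions on growth. The related SP factors bind similar sites with the same kind of fingers.

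Total expected counts were 16097680 to 16176745 in the WT libraries and 12805180 to 14307287 in the CBS KO libraries. CBS was measured at 50.8 ± 2.11 CPM (counts per 1000000 counts of a library) in WT but 22.8 ± 3.81 CPM in CBS KO (SD, n = 3 each), a log2 fold change of -1.15 (SE 0.10, adjusted p = 1.18e-08, edgeR), and its reads may be shared with its near-identical copy CBSL. An mRNA level does not measure the protein, here or for the KLF genes. Of 13028 genes tested across the table, 38.4% were called higher in CBS KO and 38.9% lower at an adjusted p under 0.05, which is 77.2% in all. Scaling bears on every direction given here. CPM values were scaled with TMM (the trimmed mean of M values), which puts the median over all genes at a log2 fold change of -0.01. With library totals in place of TMM that median was -0.36, 22.8% of genes were called higher and 56.8% lower. On the deposited FPKM and TPM values, which are scaled to the library and to gene length, it was -0.31 on log2(FPKM + 1) and -0.51 on log2(TPM + 1). In bulk RNA, fewer cells that use a gene and less of its RNA per cell cannot be told apart.

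Of the epithelial markers, EPCAM was measured at 528 ± 11.2 CPM in WT against 1122 ± 21.5 CPM in CBS KO, and all 6 listed were tested. Markers of other cell types were mostly low. Under 1 CPM were COL1A2 and THY1 of the 5 fibroblast markers in the table, CDH5 and TEK of the 4 endothelial ones, and PTPRC and CD3E of the 4 leukocyte ones. The 6 epithelial markers summed to 6236 to 6863 CPM in WT and 8066 to 8878 CPM in CBS KO, with 4 called higher, 1 lower and 1 not called. Of these 4, the keratins KRT8, KRT18 and KRT19 lay below 0 on log2(TPM + 1). The fibroblast markers summed to 204 to 231 CPM in WT and 178 to 194 CPM in CBS KO, mostly from COL1A1, with 2 of 3 tested called lower. These 2 were PDGFRB, from 19.6 to 4.85 CPM (log2 fold change -2.01), and COL3A1, from 3.05 to 0.857 CPM (-1.81). The endothelial markers summed to 25.5 to 29.2 CPM in WT and 9.23 to 9.92 CPM in CBS KO, with PECAM1 and VWF called lower. VWF was not called with DESeq2 (adjusted p = 0.138), nor with edgeR without WT replicate 1 (adjusted p = 0.201), CBS KO replicate 1 (0.058), CBS KO replicate 2 (0.063) or CBS KO replicate 3 (0.104). The leukocyte markers summed to 31.6 to 37.96 CPM in WT and 87.1 to 103.7 CPM in CBS KO, with CD68 called higher of the 2 tested. The part of these genes in the KLF values was not tested.

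The upstream sequences of 3 KLF genes show how their starts differ, and they are printed because KLF4 and KLF6 rose most of the 10 while KLF5 was the most abundant. RefSeq promoters (GRCh38.p14, 250 bases before to 50 after a start) were at hand for 8 of the 10, with 13 starts between them, and were not at hand for KLF3 and KLF10. The 250 bases before the start are given, 5′ to 3′ on the gene's strand. For KLF4 they are chr9:107489770-107490019 on the minus strand, for KLF6 chr10:3785210-3785459 on the minus strand, and for the second start of KLF5 chr13:73058755-73059004 on the plus strand. Capitals mark the E-box CACGTG in KLF4 and KLF6, and in KLF5 the letters of the CACCC box read from the other strand.
KLF4: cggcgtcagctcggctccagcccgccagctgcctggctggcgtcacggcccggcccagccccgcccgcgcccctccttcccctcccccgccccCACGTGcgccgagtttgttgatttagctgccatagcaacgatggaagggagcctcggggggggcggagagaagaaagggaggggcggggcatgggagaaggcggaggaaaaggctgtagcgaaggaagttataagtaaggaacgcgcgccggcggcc
KLF6: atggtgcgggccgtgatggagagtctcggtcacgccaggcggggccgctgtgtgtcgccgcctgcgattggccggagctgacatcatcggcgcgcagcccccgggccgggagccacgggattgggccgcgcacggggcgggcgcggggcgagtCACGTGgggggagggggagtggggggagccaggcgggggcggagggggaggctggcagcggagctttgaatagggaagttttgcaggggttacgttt
KLF5: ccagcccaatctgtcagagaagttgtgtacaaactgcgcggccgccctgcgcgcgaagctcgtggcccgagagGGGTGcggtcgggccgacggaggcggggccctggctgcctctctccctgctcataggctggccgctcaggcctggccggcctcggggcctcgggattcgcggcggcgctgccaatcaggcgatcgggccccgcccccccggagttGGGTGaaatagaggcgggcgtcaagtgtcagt

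Each motif was searched on both strands over the full window of 300 bases. The E-box CACGTG, read by factors such as MYC and USF, stood at position -157 from the start of KLF4 and at -97 from that of KLF6. It was also found at 1 start each of KLF11 and KLF7, which makes 4 of the 8 genes, and it occurred in 7.26% of 35116 promoters of this length. Of the KLF genes outside the list, KLF15 held it at -46, and KLF15 was lower in CBS KO (log2 fold change -0.75, edgeR with TMM). The E-box was thus not limited to KLF genes that rose. The GC box GGGCGG, which SP and KLF factors bind, was found in 7 of the 8 genes and in 45% of all promoters. KLF4 held 4 of them, KLF6 held 2, KLF5 held 2 at its second start, and KLF9 held none. The CACCC box occurred in 4 of the 8 genes, against 59.9% of all promoters, and these letters were not in the windows of KLF4 and KLF6. TATAAA was found at the first start of KLF5 alone (11.5% of all promoters), CCAAT in 5 of the 8 genes (34.6%), and the cyclic AMP element TGACGTCA at 1 start of KLF11 (1.85%). KLF2 held a MEF2 site (0.572%) and KLF7 a CArG box (1.29%) and the heat shock letters GAANNTTC (6.77%), while the AP-1 letters TGANTCA (7.71%) were in none of the 13 windows. GC content had a median of 70% over the 13 windows, from 32.67 to 80.67%, and of 58.67% over all promoters. These matches describe the letters only, and genes counted at several starts had more chances of a match. Counted by window, as the shares of all promoters are, 8 of the 13 held a GC box, 7 a CACCC box, 6 a CCAAT box and 4 the E-box.

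Among the activators, KLF4 and KLF6 were 10.8-fold and 8.77-fold higher in CBS KO than in WT with TMM, and KLF7 rose with them, while KLF5 moved little and KLF2 was barely detected. KLF4, on chromosome 9 at 107484852 to 107489769 (GRCh38), restrains the cell cycle in the gut epithelium. It was measured at 8.02, 7.08 and 7.70 CPM in WT replicates 1, 2 and 3 and at 91.8, 77.7 and 77.1 CPM in CBS KO replicates 1, 2 and 3. All CBS KO libraries lay far above all WT libraries. The means were 7.60 ± 0.480 and 82.2 ± 8.34 CPM (SD, n = 3 each), a log2 fold change of 3.43 (SE 0.09). It was 3.08 with library totals and 2.63 on log2(TPM + 1). By log2 fold change KLF4 was the 120th highest of the genes tested.

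KLF6, on chromosome 10 at 3775996 to 3785209, is an early response gene that can raise CDKN1A and TGF-beta genes. Its levels were 31.9, 30.9 and 28.3 CPM in WT, against 293, 246 and 261 CPM in CBS KO. The groups did not overlap, and CBS KO replicate 1 was the highest library here as it was for KLF4. From 30.4 ± 1.86 to 266 ± 24.0 CPM (SD, n = 3), the log2 fold change was 3.13 (SE 0.08), the 159th highest. It was 2.78 with library totals and 2.46 on log2(TPM + 1).

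KLF7, on chromosome 2 at 207074137 to 207173851, is best known from neurons and adipose tissue. It was low in WT, at 2.80, 3.02 and 2.51 CPM, and reached 13.7, 13.2 and 13.0 CPM in CBS KO. The CBS KO libraries were close to one another and above all WT libraries. Its log2 fold change was 2.26 (SE 0.13) or 4.78-fold, from 2.78 ± 0.253 to 13.3 ± 0.354 CPM (SD, n = 3). On log2(FPKM + 1) it was 1.13, a scale on which a pseudocount of 1 holds down the change of low genes, and on log2(TPM + 0.1) it was 1.86.

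KLF5, on chromosome 13 at 73054976 to 73077538, promotes the growth of crypt cells. It was the most abundant of the 10 per length in both groups. Its levels were 206, 212 and 195 CPM in WT and 255, 246 and 230.01 CPM in CBS KO, and the groups did not overlap. The log2 fold change was 0.25 (SE 0.06) with TMM, from 204 ± 8.26 to 244 ± 12.6 CPM (SD, n = 3), but -0.10 with library totals and -0.33 on log2(TPM + 1), so its direction followed the scaling. In the 3′ UTR of its GENCODE transcript KLF5-201 stood the only nonamer of the AU-rich decay type, TTATTTATT, found in the 3′ UTRs of the 10 genes. This element lay 1301 bases after the stop codon at chr13:73077187-73077195 on the plus strand (GRCh38), in capitals here, and 9.148% of 12702 tested genes had one.
KLF5 element: gtttatctTTATTTATTttgtggta

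KLF2, on chromosome 19 at 16324826 to 16328685, is a flow-sensitive factor of endothelium and lymphocytes. It had 6, 6 and 5 counts in the WT libraries and 5, 9 and 2 in the CBS KO libraries, or 0.273 to 0.330 and 0.163 to 0.791 CPM. The groups overlapped, and the gene had too few counts for the test. A count of 0 allows up to 0.164 to 0.264 CPM in these libraries (3 counts, counting error only), so KLF2 lay near the limit of detection. In the fit with no filter its log2 fold change was 0.48 (SE 0.56) and it was not called. A small difference in either direction could not be told from none at this depth.

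**Figure D1:**
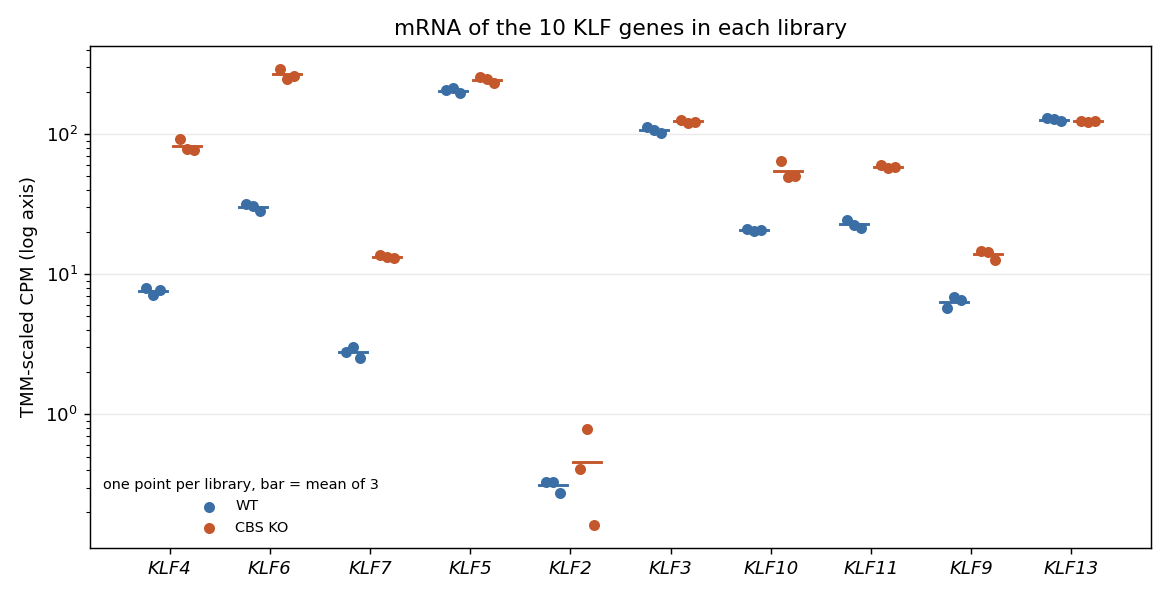
TMM-scaled CPM (log axis) of the 10 KLF genes in each of the 6 libraries, with a bar at the mean of each group of 3. The CBS KO points lie far above the WT points for KLF4, KLF6 and KLF7 and clearly above for KLF9, KLF10 and KLF11, by smaller steps for KLF3 and KLF5 (a step that turns round with library totals), and among them for KLF2 and KLF13.

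Among the repressors, the SIN3-binding KLF9, KLF10 and KLF11 were higher in CBS KO, by 2.18 to 2.66-fold with TMM and by less on the other scales, whereas KLF13 of the same group and the CtBP-binding KLF3 stayed near the median of all genes. KLF10, on chromosome 8 at 102648784 to 102655725, and KLF11, on chromosome 2 at 10043550 to 10054836, are both known as early genes of TGF-beta signalling. KLF10 was measured at 20.98, 20.5 and 20.5 CPM in WT and reached 64.4, 49.7 and 50.5 CPM in CBS KO. CBS KO replicate 1 stood above the other two, and the groups did not overlap. The log2 fold change of KLF10 was 1.41 (SE 0.09) or 2.66-fold, from 20.7 ± 0.281 to 54.9 ± 8.28 CPM (SD, n = 3), and 0.77 on log2(TPM + 1).

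KLF11 went from 24.6, 22.5 and 21.5 CPM in WT to 60.2, 57.1 and 58.5 CPM in CBS KO. Its 6 libraries fell into 2 tight groups with no overlap. The log2 fold change was 1.36 (SE 0.07) or 2.56-fold, from 22.9 ± 1.54 to 58.6 ± 1.52 CPM (SD, n = 3), and 0.73 on log2(TPM + 1). Per length the pair kept nearly the same proportion, with a ratio of KLF10 to KLF11 in TPM of 1.29 ± 0.0717 in WT and 1.33 ± 0.170 in CBS KO. That difference was smaller than the spread between replicates.

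KLF9, on chromosome 9 at 70384604 to 70414657, is induced by glucocorticoid and thyroid hormone in many tissues. Its levels were 5.71, 6.86 and 6.50 CPM in WT and 14.7, 14.3 and 12.7 CPM in CBS KO. All CBS KO libraries lay above all WT libraries. The log2 fold change was 1.13 (SE 0.11) or 2.18-fold, from 6.36 ± 0.586 to 13.9 ± 1.06 CPM (SD, n = 3). With library totals it was 0.77, and on log2(TPM + 1) it was 0.40.

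KLF13, on chromosome 15 at 31326835 to 31435665, is known from T cells and the heart. It was measured at 129.7, 127.3 and 124.0 CPM in WT and at 124.3, 121.7 and 123.4 CPM in CBS KO. The groups overlapped, since CBS KO replicate 1 lay above WT replicate 3. Its log2 fold change was -0.04 (SE 0.06) with TMM and -0.40 with library totals, which is -0.03 from the median of all genes in each case.

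KLF3, on chromosome 4 at 38664199 to 38701517, is a broadly expressed repressor. It was measured at 112, 107 and 103 CPM in WT and at 126, 121 and 122 CPM in CBS KO. The CBS KO libraries were higher without overlap, by a small step. The log2 fold change was 0.20 (SE 0.06) with TMM, from 107 ± 4.86 to 123 ± 2.59 CPM (SD, n = 3), but -0.16 with library totals and -0.36 on log2(TPM + 1).

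Counted over the whole list, 9 of the 10 genes could be tested. In the fit over all genes 8 of these 9 were called higher and 0 lower, where 38.4% of all genes were called higher, and KLF13 was not called. The groups did not overlap in 8 of the 10, where 79.1% of all tested genes had groups that did not overlap. With library totals 6 were called higher and 2 lower (KLF3 and KLF13), where 22.8% of all genes were called higher and 56.8% lower. The genes were chosen on this contrast, so nothing is read from these counts. KLF4, KLF6, KLF7, KLF9, KLF10 and KLF11 held their direction in every alternative tried. Measured from the median of all genes, KLF4 stood 3.45 log2 units above it with TMM, 3.45 with library totals and 3.14 on log2(TPM + 1).

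**Figure D2:**
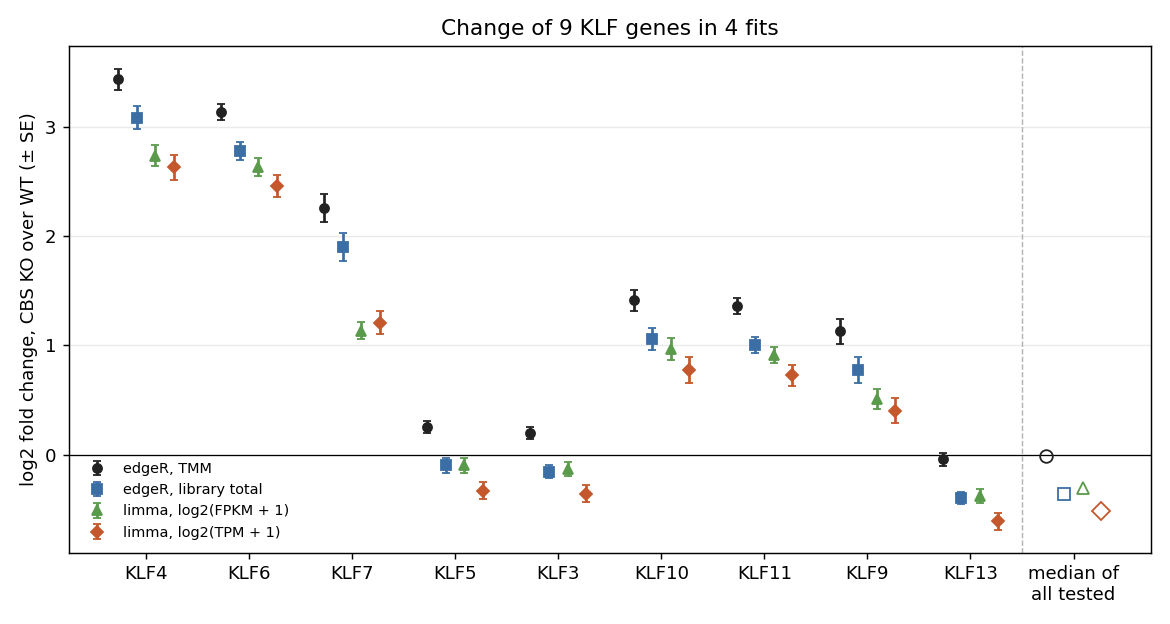
Log2 fold change (CBS KO over WT, ± SE) of the 9 tested KLF genes in 4 fits that differ in scaling, unit and test, with the median of all tested genes as open symbols at the right. KLF4, KLF6, KLF7, KLF9, KLF10 and KLF11 stay above 0 in all 4, KLF3 and KLF5 lie above 0 with TMM and below 0 in the other 3, and KLF13 follows the median of all genes, which drops from -0.01 to -0.51.

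Levels of different genes were compared per length, in TPM. In WT the order was KLF5, KLF3, KLF13, KLF10, KLF6, KLF11, KLF4, KLF9, KLF7 and KLF2, and each of the 9 pairs of neighbours was separated, since the ranges of their 3 libraries did not meet. KLF5 led with 124 ± 4.88 TPM (SD, n = 3), KLF3 followed with 38.9 ± 1.66 TPM and KLF2 closed with 0.227 ± 0.0231 TPM. In CBS KO the order was KLF5, KLF6, KLF4, KLF3, KLF10, KLF13, KLF11, KLF9, KLF7 and KLF2. KLF6 had moved from the fifth place to the second and KLF4 from the seventh to the third. Here 5 of the 9 pairs of neighbours were separated. KLF5 (98.9 ± 11.5 TPM) and KLF6 (76.9 ± 10.9 TPM) overlapped, as did KLF3 with KLF10, KLF10 with KLF13, and KLF9 with KLF7. Within each CBS KO library, though, KLF5 lay above KLF6, KLF3 above KLF10 and KLF10 above KLF13. KLF9 and KLF7 were equal at 2.98 TPM in CBS KO replicate 3. In FPKM the order was the same, and KLF5 and KLF6 were then separated as well.

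The make-up of the KLF pool does not depend on how libraries are scaled to one another. The TPM of the 18 KLF genes in the table summed to 262 to 273 in WT and to 303 to 383 in CBS KO. KLF5 supplied 45.9, 47.5 and 45.2% of that sum in WT and 28.6, 30.5 and 28.6% in CBS KO. The largest share thus stayed with KLF5 in all 6 libraries but was smaller in each CBS KO library than in each WT library. KLF6 went from 5.05, 4.93 and 4.66% to 23.3, 21.7 and 23.1%, and KLF4 from 2.06, 1.84 and 2.06% to 11.9, 11.1 and 11.0%. The shares of both were higher in every CBS KO library than in any WT library. KLF3 held 14.5 ± 0.373% in WT and 8.95 ± 0.377% in CBS KO, and KLF13 13.4 ± 0.0651% and 6.89 ± 0.366% (SD, n = 3). KLF10 moved from 5.44 ± 0.0945 to 7.64 ± 0.682% and KLF11 from 4.21 ± 0.211 to 5.75 ± 0.224%, while KLF7 held 0.297 and 0.937% and KLF9 0.896 and 1.04%. The ratio of KLF4 to KLF5 was 0.0450, 0.0386 and 0.0456 in WT and 0.414, 0.364 and 0.386 in CBS KO, 9.01 times the WT mean. For KLF6 to KLF5 it was 0.106 ± 0.00387 in WT and 0.778 ± 0.0582 in CBS KO. Shares are parts of a whole, so the share of a gene can fall without a fall of its own level. With TMM, KLF3 and KLF5 were called higher and KLF13 was not called.

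**Figure D3:**
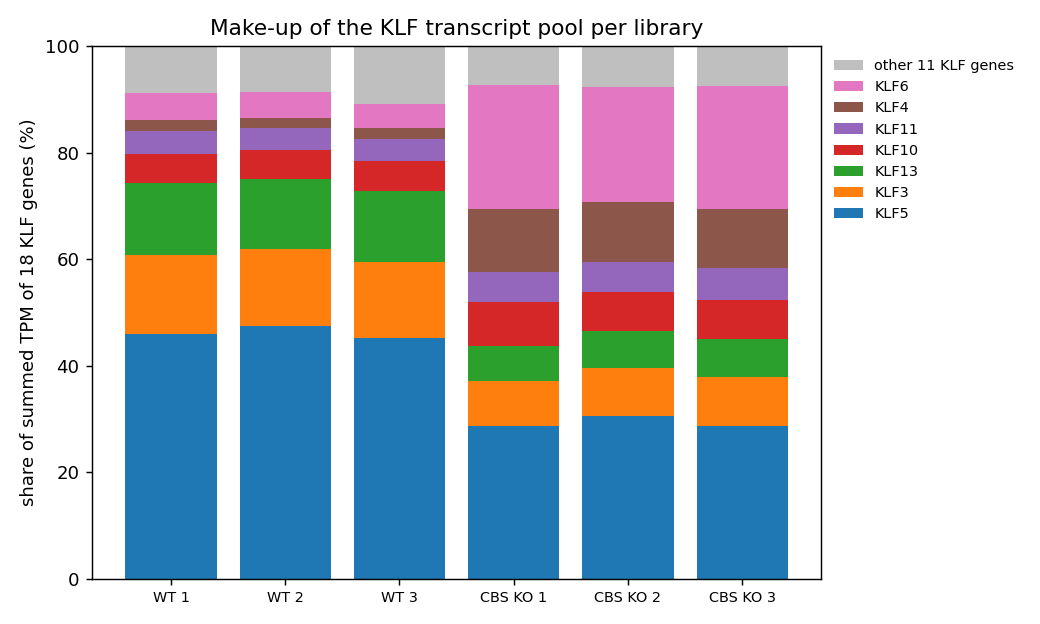
Share (%) of the summed TPM of 18 KLF genes taken by each of 7 KLF genes, with the other 11 together in grey, as 1 bar per library. KLF5 narrows from 45.2 to 47.5% in the WT libraries to 28.6 to 30.5% in the CBS KO libraries, while KLF6 and KLF4 widen.

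The transcripts whose levels followed that of KLF4 most closely were PIM1, a survival kinase, PCK1, a gluconeogenic enzyme, and HILPDA, a lipid droplet protein. Likeness was the root mean square difference of log2 CPM over the 6 libraries, each gene centred on its own mean, among the 10917 genes that averaged 5 CPM or more. It was 0.0875 for PIM1, 0.117 for PCK1 and 0.125 for HILPDA, which is a description over 2 groups and says mainly that these genes rose by a like amount. The mean of PIM1 went from 41.1 to 404 CPM. For KLF13, the gene of the list with the lowest log2 fold change, they were METAP1 (0.00976), LAMB1 (0.0121) and LRRC8D (0.0142).

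All 10 genes held the pentamer ATTTA in the 3′ UTR of the GENCODE transcript used, as did 72.22% of tested genes. Its density ran from 0.893 per kb in KLF13 to 3.56 in KLF2, with a median of 1.601 over tested genes, and stood at 2.22 in KLF4 and 1.69 in KLF6. TATTTAT was found in 5 of the 10, against 34.62% of tested genes. In KLF7, which rose next most after KLF4 and KLF6, the density of ATTTA was 2.83 per kb. These counts do not measure decay, and their part in the changes was not tested.

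Of the other 8 KLF genes, 4 had enough counts for the test. KLF12, the CtBP-binding relative of KLF3, was higher, from 26.8 ± 2.84 to 42.8 ± 2.89 CPM (SD, n = 3; log2 fold change 0.68, SE 0.09, adjusted p = 1.85e-06, edgeR), but its mean TPM was 5.18 in both groups. KLF16 was called higher with TMM (log2 fold change 0.49, SE 0.12, adjusted p = 0.00147, edgeR) and was at -0.08 on log2(TPM + 1). KLF15, a metabolic factor of liver, muscle and kidney, fell from 4.51 ± 0.360 to 2.70 ± 0.754 CPM (SD, n = 3; log2 fold change -0.75, SE 0.19, adjusted p = 0.00194, edgeR). KLF8 was not called (0.804 ± 0.276 and 1.04 ± 0.320 CPM). KLF1, the erythroid factor, had 3 counts over the WT libraries and 0 over the CBS KO libraries, KLF14 had 6 and 0, KLF17 0 and 1, and KLF18 1 and 1, too few for a fold. On log2(TPM + 1) KLF15 was called lower, KLF12 and KLF16 were not called, and KLF8 was too low to be tested. On that scale 15.5% of all genes were called higher and 66.1% lower.

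Of the 8 SP genes in the table, 6 were called higher and 2 lower with TMM, beside 38.4% and 38.9% of all genes, and their median log2 fold change was 0.47. SP8 rose by 1.38 log2 units (SE 0.29, adjusted p = 0.000442, edgeR) from a low level of 0.767 CPM. SP3 (0.55), SP4 (0.52), SP5 (0.49), SP6 (0.45) and SP1 (0.30) were called higher with TMM, but on log2(TPM + 1) all 5 were at or below 0, from -0.32 for SP4 to -0.0026 for SP3. SP2 fell by 0.32 and SP9 by 1.15 log2 units. With library totals 2 of the 8 were called higher and 2 lower, beside 22.8% and 56.8% of all genes.

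**Figure D4:**
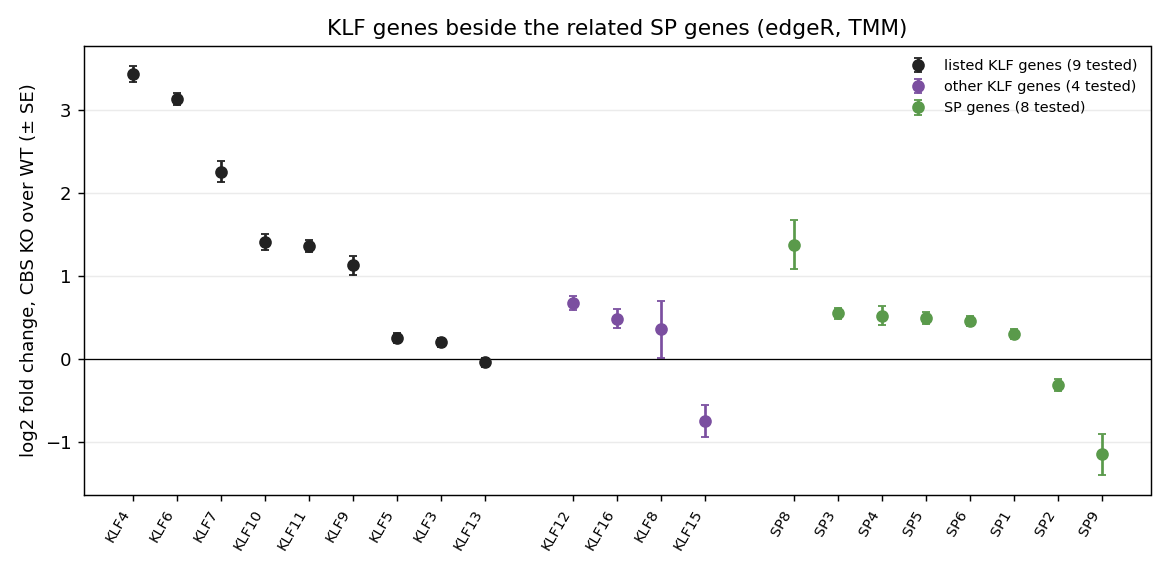
Log2 fold change (CBS KO over WT, ± SE, edgeR with TMM) of the 9 tested listed KLF genes, the 4 other tested KLF genes and 8 SP genes, 1 point per gene. The listed genes run from -0.04 (KLF13) to 3.43 (KLF4), the other KLF genes from -0.75 (KLF15) to 0.68 (KLF12), and the SP genes from -1.15 (SP9) to 1.38 (SP8); KLF3, KLF5, KLF16, SP1, SP3, SP4, SP5 and SP6 turn round on the TPM scale.

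Of 12 genes for proteins that KLF factors work through, 3 were called higher and 5 lower, with a median log2 fold change of -0.08. The share called lower was near that of all genes (38.9%), and the share called higher was below theirs (38.4%). EP300, the acetyltransferase used by several activators of the family, fell from 138 ± 2.17 to 51.7 ± 8.44 CPM (SD, n = 3; log2 fold change -1.41, SE 0.09, adjusted p = 8.36e-10, edgeR). SIN3A, the scaffold bound by KLF9, KLF10, KLF11 and KLF13, fell from 98.3 ± 0.450 to 41.6 ± 1.002 CPM (SD, n = 3; log2 fold change -1.24, SE 0.06, adjusted p = 2.55e-11, edgeR). CTBP1, the partner of KLF3, fell by 0.54 log2 units, and SET, a histone chaperone that binds KLF5, rose by 0.66 with TMM and was not called on log2(TPM + 1), at 0.06. With library totals 1 was called higher and 9 lower, beside 22.8% and 56.8% of all genes.

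Of 11 genes that control the turnover of KLF proteins, 6 were called higher and 3 lower (median 0.49), beside 38.4% and 38.9% of all genes. WWP1, the ubiquitin ligase of KLF5, rose from 41.5 ± 1.81 to 72.9 ± 5.51 CPM (SD, n = 3; log2 fold change 0.81, SE 0.07, adjusted p = 2.98e-08, edgeR). SIAH1, a ligase of KLF10, rose by 0.86 log2 units (0.24 and not called on log2(TPM + 1)), and BTRC, a ligase of KLF4, fell by 0.94. FBXO32, which also acts on KLF4, rose by 1.42 but from 0.767 CPM, and was too low to be tested on log2(TPM + 1). On log2(TPM + 1) 1 was called higher and 4 lower, beside 15.5% and 66.1% of all genes on that scale.

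Inputs that induce KLF genes in other settings were mixed. The MEK5-ERK5-MEF2 chain, which induces KLF2 and KLF4 in endothelium, had 6 tested genes, of which 3 were called higher and 2 lower (median 0.17), beside 38.4% and 38.9% of all genes. Without WT replicate 1, WT replicate 2 or CBS KO replicate 2, and with median-ratio factors or DESeq2, 1 was called lower. Its kinase MAPK7 (ERK5) fell from 17.3 ± 0.130 to 5.89 ± 0.321 CPM (SD, n = 3; log2 fold change -1.55, SE 0.10, adjusted p = 7.57e-10, edgeR). MEF2D rose by 1.15 and MAP3K2 by 0.94 log2 units, and MAP3K3 was at 0.25 with TMM and -0.11 with library totals, and without WT replicate 2 it was not called (0.16, adjusted p = 0.105, edgeR). On log2(TPM + 1) 2 of the 6 were called higher and 4 lower (all genes 15.5% and 66.1%).

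Genes of the TGF-beta pathway, which induces KLF10 and KLF11, were called higher in 7 and lower in 2 of 10 cases, with a median of 0.50, where 38.4% and 38.9% of all genes were called. Without any 1 of the 3 WT libraries, CBS KO replicate 2 or CBS KO replicate 3, and with median-ratio factors or DESeq2, 1 was called lower. The inhibitory SMAD7, itself an early gene of the pathway, rose from 13.5 ± 0.187 to 37.5 ± 1.04 CPM (SD, n = 3; log2 fold change 1.47, SE 0.08, adjusted p = 3.30e-11, edgeR). Its libraries lay at 13.3, 13.5 and 13.7 CPM in WT against 38.6, 36.6 and 37.3 CPM in CBS KO, with no overlap. SMAD2, which carries the signal to the nucleus, rose by 1.18 log2 units. SKIL, the listed gene that was not called, was at 0.21 (adjusted p = 0.0624, edgeR with TMM), and its groups overlapped. Of the ligands, TGFB1 rose by 0.77 with TMM (0.15 and not called on log2(TPM + 1)) and TGFB3 fell by 1.46. On log2(TPM + 1) 2 were called higher and 4 lower, against 15.5% and 66.1% of all genes.

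Of 9 genes for steroid and thyroid hormone inputs, which induce KLF9 among others, 4 were called higher and 3 lower (median 0.14), shares near the 38.4% and 38.9% of all genes. PER1, a clock gene that glucocorticoids raise, rose from 16.9 ± 0.816 to 81.3 ± 8.35 CPM (SD, n = 3; log2 fold change 2.26, SE 0.09, adjusted p = 6.19e-13, edgeR), and the glucocorticoid receptor NR3C1 rose by 1.01 log2 units. FKBP5, another glucocorticoid target, fell by 0.50, and the thyroid hormone receptor THRB fell by 0.89. On log2(TPM + 1) the counts were 2 higher and 4 lower (all genes 15.5% and 66.1%), and some of the 9 genes were too low to be tested there.

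Of 24 tested genes reported elsewhere as targets of KLF factors, 16 were called higher and 5 lower, with a median log2 fold change of 0.79, beside 38.4% and 38.9% of all genes and their median of -0.01. This is a list of both activated and repressed targets, so its median has no expected sign. CCL5, a chemokine that KLF13 controls in T cells, had 18 counts over the WT libraries and 414 over the CBS KO libraries (0.329 ± 0.000949 and 11.6 ± 1.65 CPM, SD, n = 3; log2 fold change 5.10, SE 0.22, adjusted p = 2.69e-12, edgeR). Each WT library had 6 counts of CCL5, so its WT SD understates the counting error. LAMA1, a laminin chain reported to be under KLF4 and KLF5, fell from 985, 929 and 853 CPM in WT to 42.0, 38.2 and 37.5 CPM in CBS KO, a log2 fold change of -4.55 (SE 0.08, adjusted p = 6.65e-17, edgeR). TXNIP, an inhibitor of thioredoxin, rose by 2.66 log2 units to 839 ± 80.8 CPM, and FGFBP1, a growth factor carrier reported under KLF5, by 2.80 from 0.274 CPM. On log2(TPM + 1) 11 were called higher and 10 lower, beside 15.5% and 66.1% of all genes. Not all of the 24 had levels high enough to be tested on that scale.

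Binding proteins of AU-rich elements, which control the stability of early response transcripts, were called higher in 3 and lower in 4 of 8 cases (median -0.23), where 38.4% of all genes were called higher, a like share, and 38.9% lower. ZFP36, which speeds decay, rose from 23.0 ± 1.24 to 128 ± 5.47 CPM (SD, n = 3; log2 fold change 2.48, SE 0.07, adjusted p = 2.01e-14, edgeR). Its relative ZFP36L1 rose by 0.77 (0.17 and not called on log2(TPM + 1)), ZFP36L2 fell by 1.21 and TIAL1 rose by 0.84 log2 units.

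Of the genes of goblet and surface cells, in which KLF4 has a known role, 9 were in the table and 5 could be tested, with 3 called higher and 1 lower (median 0.17), beside 38.4% and 38.9% of all genes. With library totals 2 were called higher and 2 lower, beside 22.8% and 56.8% of all genes. The counts were also 2 and 2 on log2(TPM + 1), beside 15.5% and 66.1% of all genes. GUCA2A, the surface hormone guanylin, rose from 1.57 ± 0.139 to 9.34 ± 1.63 CPM (SD, n = 3; log2 fold change 2.57, SE 0.17, adjusted p = 9.07e-10, edgeR), and the surface keratin KRT20 rose by 2.47 log2 units from 0.767 CPM. FCGBP, a goblet cell mucus protein, fell by 0.75 with TMM and was too low to be tested on log2(TPM + 1). AGR2 was called higher with TMM at 0.17 but lay at -0.18 with library totals, and it was not called without WT replicate 1 (0.13), WT replicate 3 (0.14) or CBS KO replicate 2 (0.16). The goblet cell mucin MUC2 and the regulators SPDEF and ATOH1 stayed under 1 CPM in both groups.

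**Figure D5:**
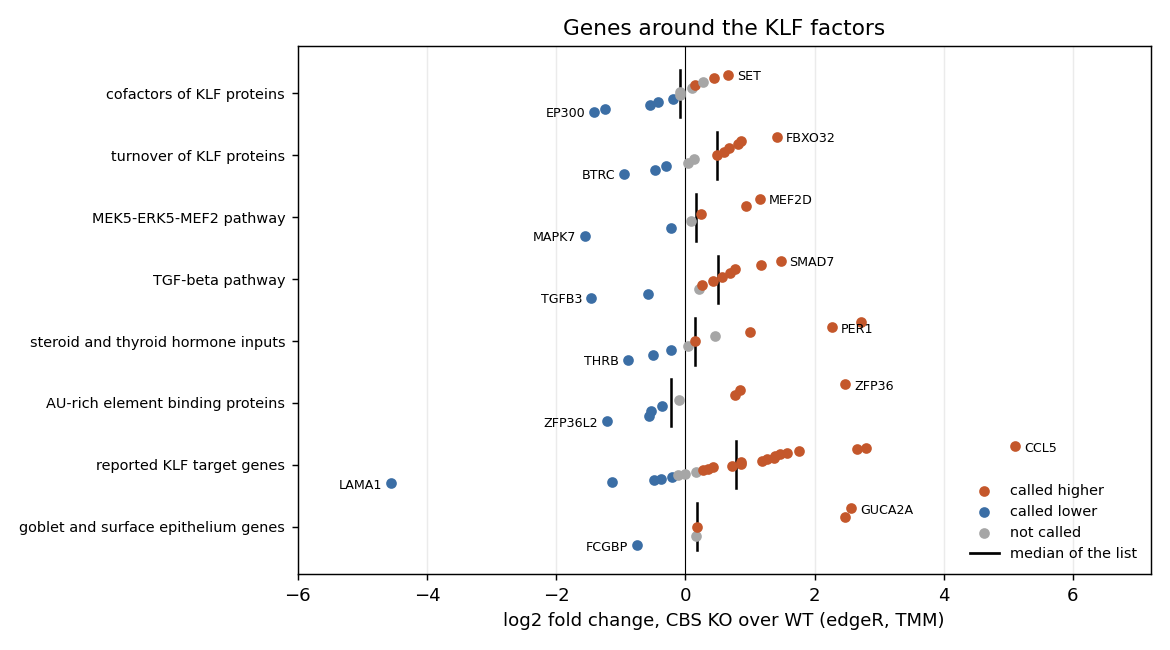
Log2 fold change (CBS KO over WT, edgeR with TMM) of the tested genes of 8 lists around the KLF factors, 1 point per gene, coloured by the call, with a black line at the median of each list; the lowest and highest gene of each list with a mean of at least 1 CPM are named. Medians lie between -0.23 (AU-rich element binding proteins) and 0.79 (reported KLF target genes), and the widest spread is among the target genes, from LAMA1 at -4.55 to CCL5 at 5.10. Of the genes named in the text, AGR2 and MAP3K3 turn round with library totals. These move the median of all genes from -0.01 to -0.36, so other points just above 0 can turn as well.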

How the data were processed

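Poly(A) RNA of 6 Caco-2 libraries was sequenced as read pairs with a strand-marking kit, per the labels' protocols. Tools named in the submitters' processing notes, with no role given, are HISAT2 2.2.1, StringTie 2.1.6, cutadapt 1.9, edgeR and DESeq2, beside the build GRCh38. The authors deposited expected counts (estimated read counts per gene, 7.12 to 7.43% of them not whole), FPKM values and TPM values, per the file headers. The assignment of reads to genes and its use of strand were not given in the sources used here, so reads of an antisense or overlapping gene may be included. The deposited group means were not used.

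Expected counts were rounded and filtered with filterByExpr, which left 13028 genes. The groups were compared by edgeR's robust quasi-likelihood test (edgeR 4.0.16, limma 3.58.1, R 4.3.3) with TMM scaling and Benjamini-Hochberg adjustment over all genes tested, and genes were called under 0.05. The fit was also run on simulated data in which a small part of the genes changed, evenly up and down. In the real data 77.2% of genes were called, so that run does not bear on the scaling or the directions here. The KLF genes and all lists were chosen with earlier results of these data known. Lists carry no test of their own. Of the lists, 1 gene was left out and is not reported here. Named were all KLF and SP genes in the table. Per list, up to 4 called genes with the largest change and a mean of at least 1 CPM were named as well. Other names (COL1A1, COL1A2, THY1, CDH5, TEK, PTPRC, CD3E, MUC2, SPDEF, ATOH1) serve the description of marker levels and were chosen after their values were seen. SKIL was named as the TGF-beta gene not called, also after its values were seen. No mitochondrial mRNA and no PGR, THBD, KDR, DCN, MS4A1, CA1 or SP7 was analysed here. Gene positions came from RefSeq (16732 of 16781 IDs matched), 3′ UTRs from GENCODE 29. Alternatives were median-ratio factors, library totals, no filter, a mean of at least 5 CPM, a replicate block, DESeq2 1.42.0, limma on log2(FPKM + 1), log2(TPM + 1) and log2(TPM + 0.1) with at least 0.5 in 3 libraries, and leaving out each library.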

Additional observations from a re-analysis of the deposited data

How the results depend on the processing

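Results moved most with library totals and on the FPKM and TPM values (given below in the order library totals, log2(FPKM + 1), log2(TPM + 1) and log2(TPM + 0.1)). The first changes the scaling alone, while the others also change the unit, test, filter and pseudocount, and which of these moved a value was not tested. Genes called higher went from 4998 with TMM to 2966, 2851, 1992 and 1978, and on the TPM scales those called lower went from 5062 to 8519 and 8500. The share of calls that were higher was 49.7% with TMM and then 28.6, 28.7, 18.95 and 18.9%. Listed KLF genes called lower went from 0 to 2, 1, 3 and 3. Genes of the other KLF and SP lists and the 8 lists around them called higher went from 53 to 32, 23 and 23 on the last 3 scales, and those called lower from 28 to 47 and 47 on the TPM scales. Log2 fold changes of the listed genes were as follows. KLF3 reversed to -0.16, -0.13, -0.36 and -0.37, and KLF5 to -0.10, -0.10, -0.33 and -0.33. KLF13 moved to -0.40, -0.38, -0.61 and -0.63, and to -0.082 with no filter. KLF4 moved to 3.08, 2.74, 2.63 and 2.82, KLF6 to 2.78, 2.63, 2.46 and 2.54, and KLF7 to 1.903, 1.13, 1.21 and 1.86. KLF9 moved to 0.77, 0.51, 0.40 and 0.52, KLF10 to 1.06, 0.97, 0.77 and 0.81, and KLF11 to 1.004, 0.91, 0.73 and 0.77.

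Among other named genes, these reversed in the same order: SP1 (-0.051, -0.053, -0.28, -0.29), MAP3K3 (-0.11, -0.12, -0.34, -0.37), AGR2 (-0.18, -0.18, -0.41, -0.41) and KRT18 (-0.015, -0.0048, -0.24, -0.24). SP4 reversed on the last 3 scales (-0.11, -0.32, -0.36), and on the 2 TPM scales KLF16 (-0.082, -0.088), SP3 (-0.0026, -0.0028), SP5 (-0.14, -0.14), SP6 (-0.13, -0.13), KRT8 (-0.080, -0.080) and KRT19 (-0.16, -0.16). Leaving out each library in turn gave 4744 to 5028 genes higher and 4818 to 5234 lower, 8 listed KLF genes higher and 0 lower each time, and log2 fold changes of 3.34 to 3.47 for KLF4 and 3.05 to 3.18 for KLF6. Libraries with the same replicate number deviated together only weakly across genes (correlations 0.0405, 0.0174 and 0.0220), so the numbers were not taken to pair them. With a replicate block, 4986 genes were called higher and 5058 lower, and of the listed KLF genes 8 higher and 0 lower. Of the TGF-beta genes 1 in place of 2 was then called lower. DESeq2 called 4833 genes higher and 4673 lower. Depth limits KLF2, KLF1, KLF14, KLF17 and KLF18, which had under 10 counts in each library.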
